A study of Homo sapiens with 10 samples.

Results

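The T-box genes TBX2 and TBX3, together with BCAS3, the long gene next to TBX2, were examined in SK-N-SH neuroblastoma cells for ChIP-seq peaks (chromatin immunoprecipitation and sequencing) of the coactivator MAML3 and the receptor RARα. All peaks of the 8 lists were taken that lay in 2 windows of the hg19 build. The window for BCAS3 and TBX2 ran from 58750000 to 59600000 on chromosome 17, and the window for TBX3 from 115000000 to 115300000 on chromosome 12. Peaks of any list that overlapped by 1 bp or more were joined into sites, which gave 22 sites in the first window and 2 in the second, of 10581 sites in the whole genome. They hold 69 peaks, 62 of them in the first window and 7 in the second. The windows were picked from earlier results on these same peak lists, so the number, height and treatment pattern of their sites are given as a description, with no test.

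SK-N-SH is an established human neuroblastoma cell line. Cells were kept for 24 hours in medium with charcoal-stripped serum and then received either vehicle alone, called untreated (UT) here, or retinoic acid (RA) at 1 µM. The 4 groups are MAML3 in untreated cells, MAML3 with RA, RARα in untreated cells and RARα with RA, with 2 libraries each, and all cells carry the same control genotype as far as the labels say. The labels do not say whether the 2 libraries of a group come from separate cultures, give no length of the treatment, and describe 1 cell line only. Peak lists hold no expression values, so the labelled cell type could not be checked against marker genes, and whether TBX2, BCAS3 or TBX3 changed in expression was not measured here.

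TBX2 and TBX3 are closely related transcription factors of the T-box family, known mainly as repressors of cell cycle inhibitors and as regulators of organ development. TBX2 is known as a member of the group of transcription factors that sustain the adrenergic state of neuroblastoma, and it lies on the long arm of chromosome 17, which is often gained in this tumour. BCAS3 codes for a cytoplasmic protein linked to autophagy and the cytoskeleton, and the gene fills most of the sequence upstream of TBX2. MAML3 is a mastermind-like coactivator, best known as a partner of the Notch complex. RARα binds DNA with a retinoid X receptor partner and switches from repression to activation when retinoic acid is bound.

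The lists differed in length, and this limits every comparison of presence and absence. The MAML3 lists held 2222 and 6759 peaks in untreated cells and 7532 and 6230 with RA. The RARα lists held 1321 and 251 peaks in untreated cells and 1103 and 1064 with RA. The depth of sequencing was not given. Tags in the list names give a lane (L003 or L007) for 7 lists and mark RARα untreated replicate 2 as merged. They also give both untreated MAML3 lists 1 index, so these may be 1 library sequenced on 2 lanes. The peaks of each list are numbered along the chromosomes, and some numbers are skipped. Each peak has 1 score from the authors' peak caller. It is given here as a percentile, the percentage of peaks in the same list with a lower score, so a site can be ranked within each list but its height is not compared between lists. The absence of a peak does not show that a site was free of the protein.

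In the BCAS3 and TBX2 window the untreated MAML3 lists held 3 and 15 peaks and the RA lists 17 and 12. The RARα lists held 4 and 1 peaks in untreated cells and 5 and 5 with RA. For MAML3 the treatments overlapped, since untreated replicate 2 lay between the 2 RA libraries. For RARα 1 of the 5 peaks in RA replicate 1 came from a site listed as 2 peaks, so the RA lists held 4 and 5 sites against 4 and 1, and the treatments met there too. The smallest two-sided p that 2 against 2 libraries allow in an exact permutation test is 0.33, and no test was made.

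Most sites of this window lay upstream of TBX2, and none on it. TBX2 takes up 59477000 to 59487000 by the interval used to choose the window, whose edges are rounded to 1 kb, and its direction of transcription is toward higher coordinates. None of the 22 sites overlapped this interval, 21 lay before it and 1 after it. The interval is 10.0 kb of a window of 850 kb, most of which lies before the gene. These counts therefore depend on where the window was drawn. The first 330 kb of the window held no listed peak. MAML3 RA replicate 1, RARα untreated replicate 1 and RARα RA replicate 2 each skip 1 number in ranges that cover this stretch and extend beyond it. The sites then ran from 397.0 kb to 5.2 kb upstream of the TBX2 start, measured at their midpoints, and neighbouring sites of the window were a median of 10.9 kb apart (range 0.646 to 82.6 kb). The nearest to TBX2, at 59471651 to 59471900, ended 5.10 kb before the gene. It was a single MAML3 peak of RA replicate 1 at percentile 20.2. In the RefSeq annotation of GRCh38.p14 the genes TBX2-AS1, a long noncoding RNA, and BCAS3 precede TBX2, and LINC02875 and TBX4 follow it. Sites upstream of TBX2 may lie within BCAS3, which fills most of that sequence. Which site falls in BCAS3, or in an exon or an intron, was not annotated here, because that annotation is on another build than the peaks.

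**Figure D1:**
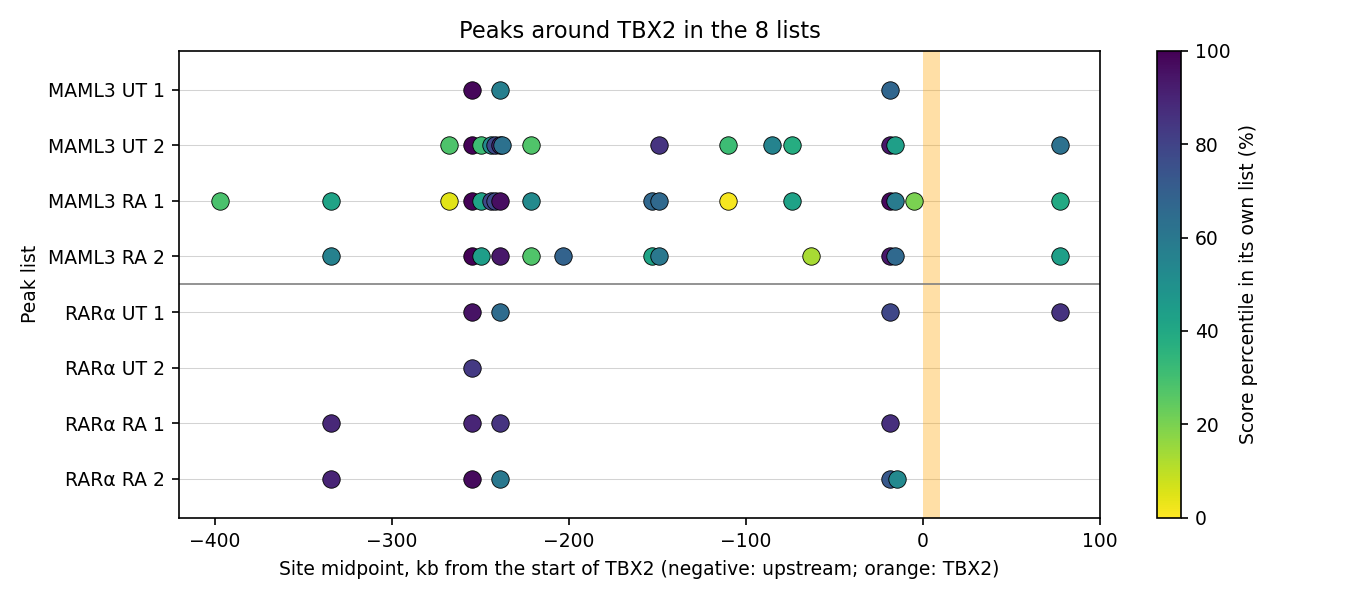
Peaks of the 8 lists in the BCAS3 and TBX2 window. Each point is a site held by that list, placed by its midpoint in kb from the start of TBX2 and coloured by its score percentile within the list, and the orange band is the TBX2 interval. Points stand above one another in all 8 lists at 254.5 kb upstream, and in the 4 RA lists only at 334.1 kb upstream.

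The leading site of the locus was present in every list. It lay at 59222219 to 59222877, 254.5 kb upstream of TBX2, and was one of 73 sites in the genome that all 8 lists held (0.690% of all sites). Of the 73 sites 7 are on chromosome 17. The shortest list, RARα untreated replicate 2, had 24 of its 251 peaks on that chromosome, and the longest, MAML3 RA replicate 1, 177 of 7532. Its MAML3 score percentiles were 98.2 and 99.3 in untreated cells and 99.5 and 99.5 with RA. Its RARα percentiles were 95.2 and 83.3 in untreated cells and 89.6 and 97.3 with RA. In each of the 8 lists it was the highest peak of the window, for both antibodies and both treatments. Over the whole list it ranked 41 of 2222 and 44 of 6759 in the untreated MAML3 lists and 39 of 7532 and 29 of 6230 in the RA lists. For RARα it ranked 63 of 1321 and 42 of 251 in untreated cells, and 114 of 1103 and 29 of 1064 with RA. Among the 73 sites in all 8 lists it stood in place 11 by mean MAML3 percentile and in place 21 by mean RARα percentile. Without RARα untreated replicate 2, the list of 251 peaks, 3 sites of the window were in all of the other 7 lists, so the count of 1 rests on that library.

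At this site RARα RA replicate 1 listed 2 peaks, from 59222422 to 59222518 and from 59222549 to 59222871, at percentiles 45.8 and 89.6. Each other list gave 1 unbroken peak of 450 to 650 bp there. The midpoints of the 4 MAML3 peaks lay within 38.0 bp of each other. Taking the higher of the 2 peaks in the split list, the RARα midpoints spread over 130 bp, and their mean was 62.6 bp from that of MAML3. The antibodies thus gave peaks on the same short stretch, with the split list as the widest departure.

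A pair of further sites carried MAML3 in all 4 lists and RARα in 3. The first, at 59458119 to 59458650, lay 18.6 kb upstream of TBX2. Its MAML3 percentiles were 67.4 and 94.0 in untreated cells and 97.7 and 94.1 with RA. Its RARα percentiles were 78.8 in untreated replicate 1 and 86.4 and 72.5 with RA. The other, at 59238151 to 59238568, lay 238.6 kb upstream. There the MAML3 percentiles were 57.2 and 88.3 in untreated cells and 96.2 and 93.5 with RA. The RARα percentiles were 65.1 in untreated replicate 1 and 85.1 and 60.1 with RA. At both sites the list without a RARα peak was untreated replicate 2, whose only peak in the window was the leading site. The peak names of that list skip 2 numbers between 59222811 and 61627562, a range of 2405 kb that covers both sites. Any peaks with these numbers were not analysed here, and whether they lay at either site is not known. At each of these 2 sites both RA percentiles of MAML3 were above both untreated ones, and the lowest was that of the short untreated list. For RARα the value of untreated replicate 1 lay between the 2 RA values. Percentiles from lists of different length cannot show whether height changed with treatment, and this was not tested.

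The order of these 3 sites was the same wherever they were all listed. In each of the 4 MAML3 lists the site at 254.5 kb had the highest score of the window, the site at 18.6 kb followed, and the site at 238.6 kb was next. The same order among the 3 was seen in the 3 RARα lists that held them. At the sites at 18.6 and 238.6 kb the mean midpoints of the 2 antibodies were 44.8 and 44.8 bp apart. The 3 sites in all 4 MAML3 lists were 14.3% of the 21 MAML3 sites of the window, against 16.8% of the 10251 MAML3 sites of the genome, a share near the background. Sites in both RA lists made up 47.6% of the window's MAML3 sites (10 of 21, 48.3% in the genome), sites in both untreated lists 14.3% (3 of 21, 19.0% in the genome) and sites in 1 list 28.6% (6 of 21, 37.2% in the genome). Without MAML3 untreated replicate 1, the list of 2222 peaks, 8 sites of the window were in all of the remaining 3 MAML3 lists. Each of the 3 also carried RARα, as did 55.7% of the 1724 such sites genome-wide.

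**Figure D2:**
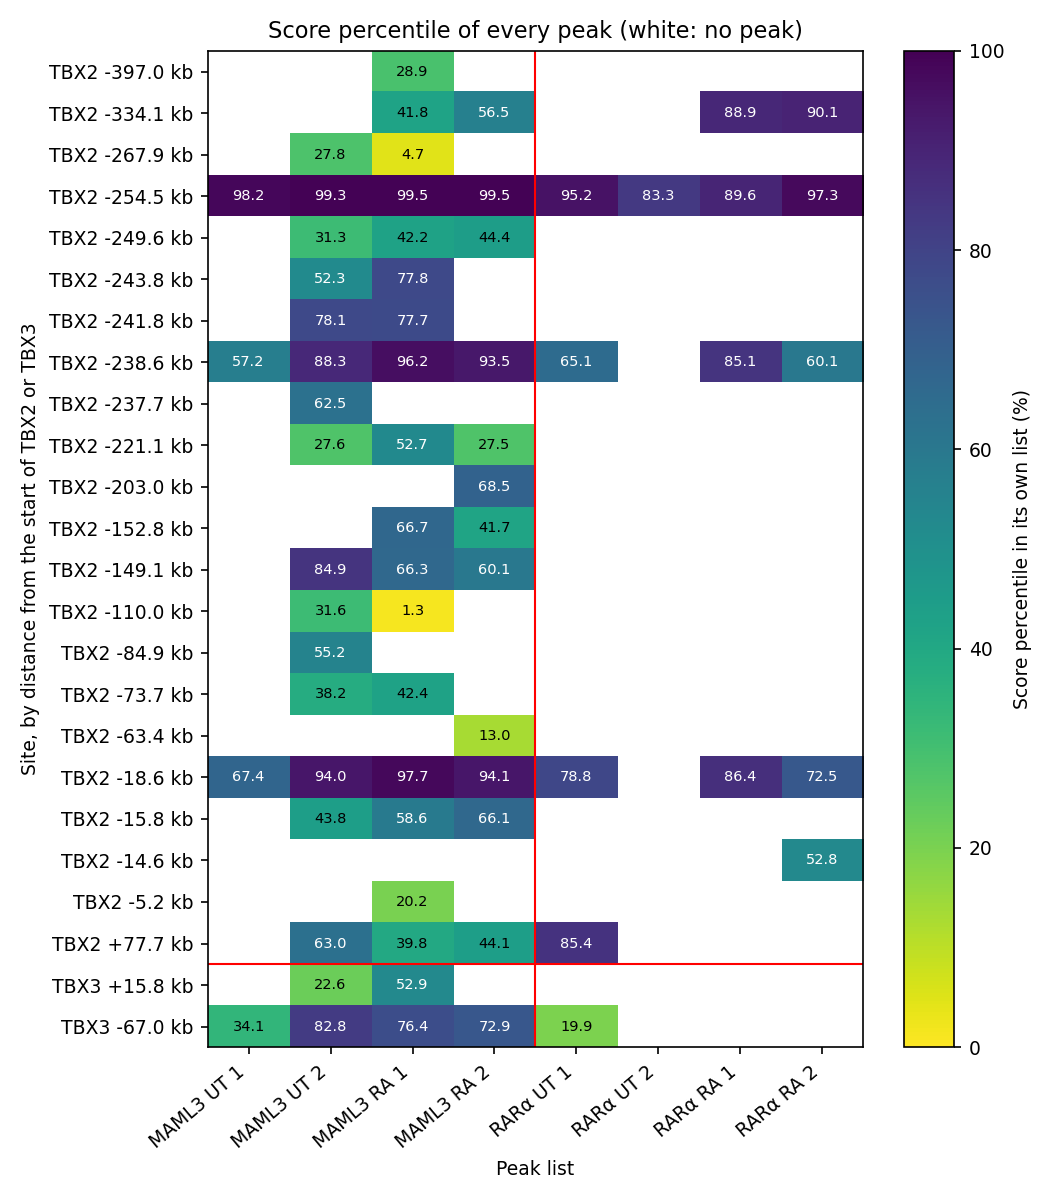
Score percentile of each peak within its own list, for the 22 sites of the BCAS3 and TBX2 window and the 2 sites of the TBX3 window (rows, by distance from the start of TBX2 or TBX3) and the 8 lists (columns). White cells have no peak, and where a list split a site the higher peak is shown. The rows at 254.5, 238.6 and 18.6 kb upstream of TBX2 are filled in 8, 7 and 7 lists.

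RA was accompanied by 1 site that both antibodies gained. A site counts as gained when both RA lists of an antibody and neither untreated list held it, and as lost in the opposite case. The site lay at 59142685 to 59143171, 334.1 kb upstream of TBX2. For RARα it had percentiles of 88.9 and 90.1 in the 2 RA lists and ranked 122 of 1103 and 105 of 1064. For MAML3 it had percentiles of 41.8 and 56.5 and ranked 4384 of 7532 and 2709 of 6230. It was thus high in the RARα lists and in the middle of the MAML3 lists. In both RARα RA lists it had the highest score of the window after the leading site, above the sites at 18.6 and 238.6 kb.

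No listed untreated peak stood near this gained site. The nearest peaks of the untreated MAML3 lists were 79.1 and 65.8 kb away, and those of the untreated RARα lists 79.1 and 79.2 kb. RARα untreated replicate 1 skips 1 number between 57496555 and 59222306, a range that covers the gained site. Any peak with that number was not analysed here, and whether it lay at the site is not known. The other 3 untreated lists skip no number across the site. Its 2 MAML3 midpoints were 18.0 bp apart and its 2 RARα midpoints 116 bp apart, while the means of the 2 antibodies differed by 4 bp. The genome held 20 sites gained for both antibodies, 0.189% of the 10581 sites. Among these 20 it stood in place 3 by mean RARα percentile (89.5, median of the 20 sites 76.9) and in place 17 by mean MAML3 percentile (49.1, median 81.7). When every RARα list was shortened to its 251 highest peaks, both RA lists still held the site. The untreated lists could not, since neither held it at full length. When every MAML3 list was shortened to 2222 peaks, no MAML3 list held it. In the higher-scoring 50% of each list MAML3 RA replicate 2 alone of the MAML3 lists held it, so in neither kind of shortened list was the site gained for both antibodies.

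**Figure D3:**
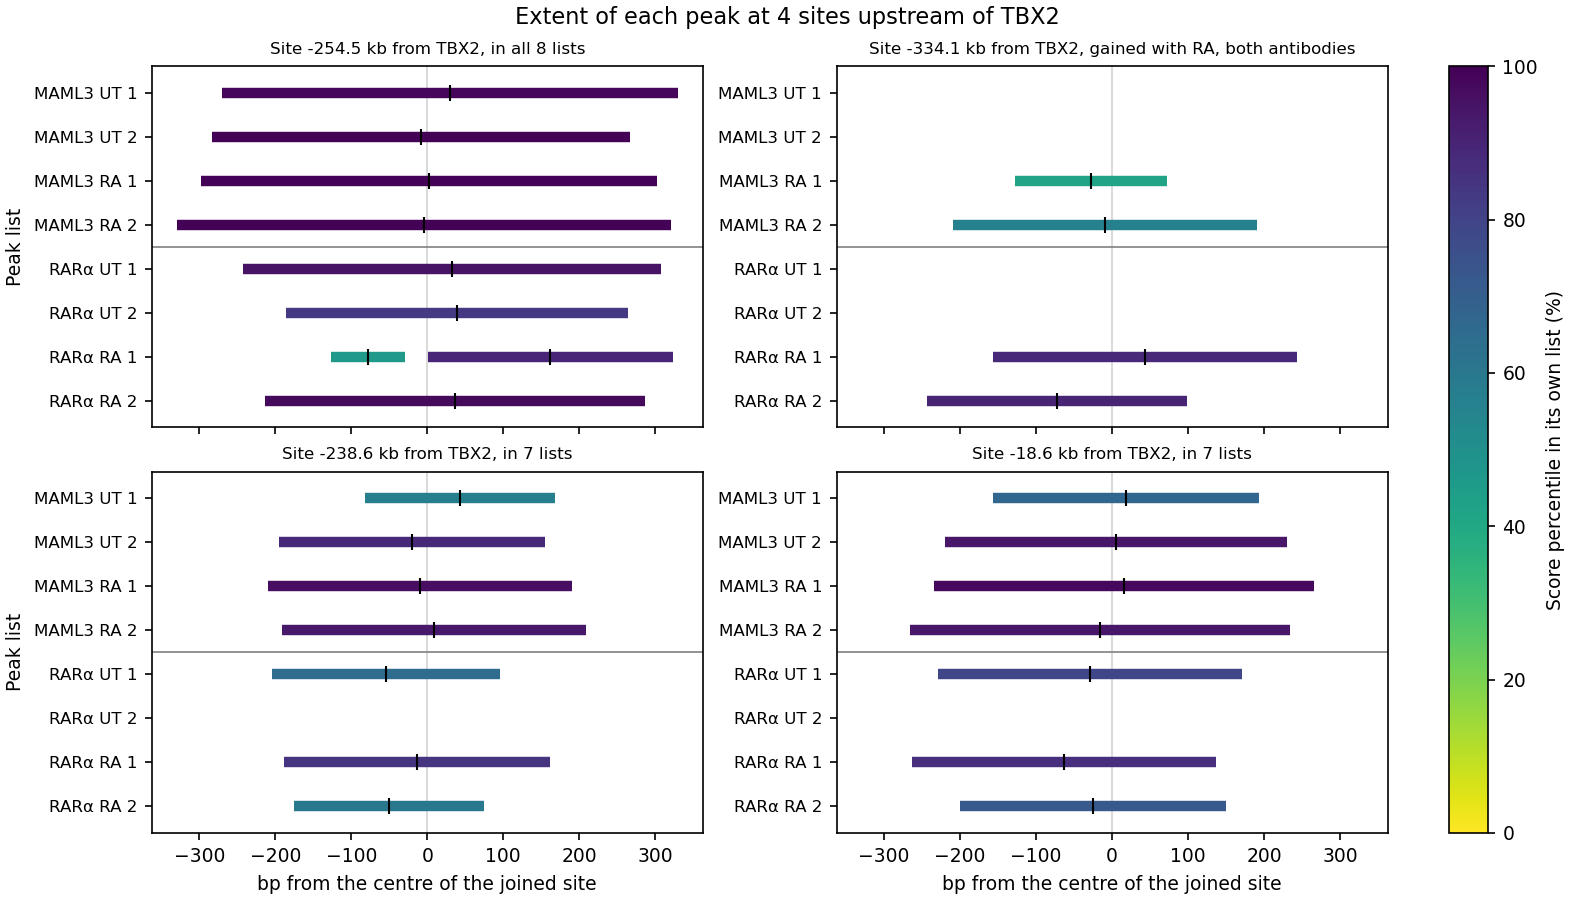
Extent of each peak (bar) and its midpoint (tick) in bp from the centre of the joined site, for 4 sites upstream of TBX2 in the 8 lists, coloured by score percentile within the list. The site at 254.5 kb has a bar in all 8 lists, with 2 bars in RARα RA replicate 1, and the site at 334.1 kb has bars in the 4 RA lists only.

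RARα was listed at 6 sites of the BCAS3 and TBX2 window, and 1 of the untreated RARα lists held only 251 peaks. Of these 6 RARα sites 4 were in both RA lists (66.7%, against 26.3% of RARα sites in the genome). In both untreated lists and in all 4 lists there was 1 (16.7%, against 8.92 and 6.75% in the genome). Sites in 1 list numbered 2 (33.3%, against 56.0%). Of the 6 sites 1 was gained (16.7%, against 5.42% of the 2120 RARα sites of the genome) and none was lost (0.472% in the genome). Counts this small move with single libraries. Without RARα untreated replicate 1 the gained count was 3, without RA replicate 1 it was 2, and without untreated replicate 2 it was 1 with 1 lost. Only 1 untreated and 1 RA library share a lane tag for RARα (L003), and between these 2 libraries 2 sites were gained and 1 was lost.

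The RARα site present in an untreated list alone lay on the other side of TBX2. At 59554456 to 59554868, 77.7 kb downstream of the TBX2 start, RARα untreated replicate 1 had a peak at percentile 85.4, the highest of that list in the window after the leading site. RARα untreated replicate 2 and both RA lists had no peak there, and their nearest peaks were 332, 95.9 and 91.9 kb away. Their peak names skip 2, 2 and 1 numbers in ranges that cover this site, so a RARα peak there may be among those not analysed here. MAML3 was listed at this site at percentile 63.0 in untreated replicate 2 and 39.8 and 44.1 with RA. MAML3 thus stood there in both treatments, while RARα was in 1 of 2 untreated lists, which does not meet the definition of a lost site. The remaining RARα site, at 59462335 to 59462534 and 14.6 kb upstream of TBX2, was listed in RA replicate 2 alone, at percentile 52.8. It lay 0.966 kb from a MAML3 site and had no listed MAML3 peak. RARα without MAML3 was listed at 3.12% of all sites of the genome. MAML3 RA replicate 1 skips 1 number between 59461300 and 59471651, a range that covers this site. RARα untreated replicate 2 and RA replicate 1 each skip 2 numbers in wider ranges that cover it. A peak of these lists at the site may thus be among those not analysed here. Of the 6 RARα sites of the window 5 also held MAML3, as did 84.1% of the RARα sites of the genome. Seen from MAML3, 5 of 21 sites held RARα (23.8%, against 17.0% in the genome).

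A further site was gained for MAML3 alone, at 59324019 to 59324400, 152.8 kb upstream of TBX2. Its percentiles were 66.7 and 41.7 in the RA lists. It had no RARα peak, and the nearest RARα peak of any list was 85.5 kb away. MAML3 untreated replicate 1 skips 1 number between 59238527 and 59458228, a range that covers the site, and untreated replicate 2 skips none there. Unlike the site gained for both antibodies, it had an untreated MAML3 peak close by, 3.31 kb away in untreated replicate 2. That neighbour, at 59327715 to 59328118, was in 3 lists at percentiles 84.9 (untreated replicate 2), 66.3 and 60.1 (RA). The 2 gained sites were 9.52% of the 21 MAML3 sites of the window, against 9.37% of all MAML3 sites of the genome, so the share was that of the background. None was lost, against 0.683% in the genome. Without MAML3 untreated replicate 2 the gained count was 7, and without RA replicate 1 or RA replicate 2 it was 4 and 4. Without untreated replicate 1 it was 2, with 2 sites lost. Between the libraries of lane tag L003 (untreated replicate 2 and RA replicate 1) 4 sites were gained and 2 lost. Between those of tag L007 (untreated replicate 1, the short list, and RA replicate 2) 9 were gained and 0 lost. When only the higher-scoring 50% of each list was used, neither of these 2 sites was gained. The 1 site then counted as gained was the one at 59460951 to 59461368, which untreated replicate 2 holds in its full list at percentile 43.8.

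**Figure D4:**
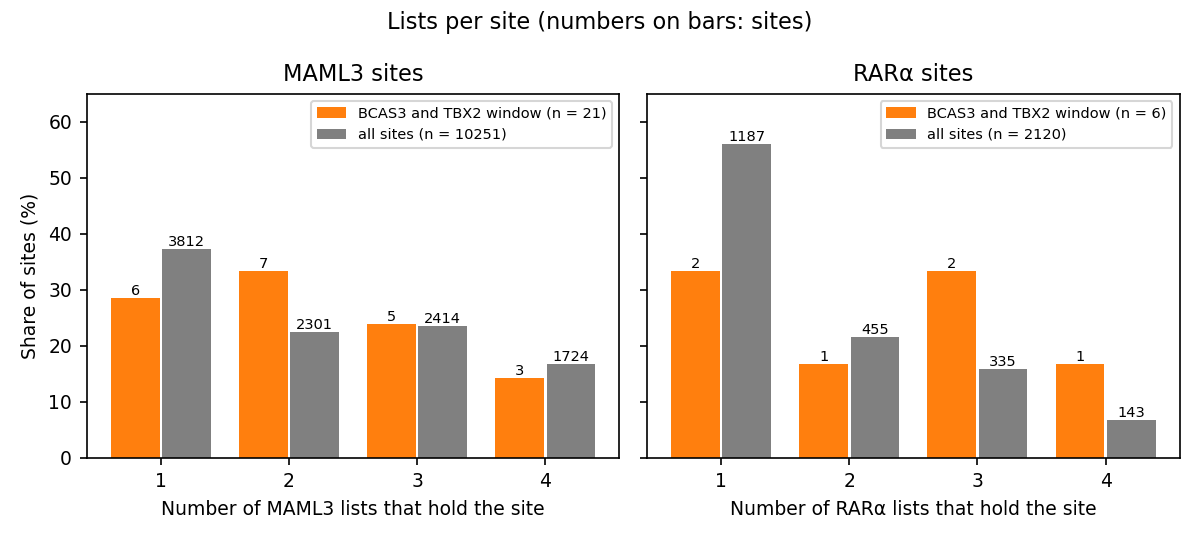
Share of sites held by 1, 2, 3 or 4 lists of an antibody, for the BCAS3 and TBX2 window (orange, 21 MAML3 and 6 RARα sites) and for all sites of the genome (grey, 10251 and 2120). Numbers on the bars are sites: in the window 3 MAML3 sites and 1 RARα site were in all 4 lists.

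The leading site stood among close neighbours, in a stretch picked after its values were seen. From 59222219 to 59239464 this stretch held 6 sites in 17.2 kb. The untreated MAML3 lists held 2 and 6 of them and the RA lists 5 and 3. The site at 59227251 to 59227618 was in 3 lists at percentiles 31.3 (untreated replicate 2), 42.2 and 44.4 (RA). The sites at 59233001 to 59233414 and 59235001 to 59235300 were in untreated replicate 2, at percentiles 52.3 and 78.1, and in RA replicate 1, at 77.8 and 77.7. MAML3 RA replicate 2 lists neither, but its peak names skip 1 number between 59227618 and 59238169. Any peak with that number was not analysed here. RARα was listed in this stretch only at the sites at 254.5 and 238.6 kb. A shorter group of 3 sites in 4.42 kb, from 59458119 to 59462534, stood close to TBX2. Beside the site at 18.6 kb it held a MAML3 site at 59460951 to 59461368 and the RARα site with no listed MAML3 peak. That MAML3 site had percentiles of 43.8 in untreated replicate 2 and 58.6 and 66.1 with RA.

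The other MAML3 sites of the window had no RARα peak. They were spread from 397.0 to 5.2 kb upstream, and those in 1 list had percentiles from 13.0 (RA replicate 2, 63.4 kb upstream) to 68.5 (RA replicate 2, 203.0 kb upstream). The 5 sites in untreated replicate 2 and RA replicate 1 alone outnumbered those in any other pair of MAML3 lists. These 2 lists share lane tag L003 and are also the longest MAML3 lists, with 6759 and 7532 peaks. The share of such sites in the genome was not computed. Over the 21 MAML3 sites the mean percentile had a median of 54.2 and a range of 13.0 to 99.1, beside a median of 38.1 over the MAML3 sites of the genome. Over the 6 RARα sites the median was 82.3 and the range 52.8 to 91.3, beside a median of 42.2 in the genome. Of all 22 sites 13 were in lists of both treatments, 7 in RA lists only and 2 in untreated lists only. The shares of these classes over all sites of the genome were not computed, and the lists differ in length. The counts are therefore not read as a treatment pattern of the locus.

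TBX3, the close relative of TBX2, had 2 sites in its window, and neither was gained nor lost for an antibody. TBX3 takes up 115108000 to 115122000 by the interval used, with edges rounded to 1 kb, and is transcribed toward lower coordinates. The main site, at 115188760 to 115189259, lay 67.0 kb upstream of its start. MAML3 was there in all 4 lists, at percentiles 34.1 and 82.8 in untreated cells and 76.4 and 72.9 with RA. The treatments overlapped, since the 2 untreated values lay on both sides of the RA values. RARα was listed there in untreated replicate 1 alone, at percentile 19.9 and rank 1057 of 1321. The mean midpoints of the 2 antibodies were 12.8 bp apart. This was the only listed RARα peak of the window, and RARα untreated replicate 2 skips 2 numbers in a range that covers it.

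The other TBX3 site, at 115106006 to 115106405, lay 1.59 kb past the far end of the gene. It was held by MAML3 untreated replicate 2 at percentile 22.6 and by RA replicate 1 at 52.9, both of lane tag L003, and by no RARα list. The TBX3 window spans 300 kb and holds 2 sites, against 850 kb and 22 sites for that of BCAS3 and TBX2. Sites in all 8 lists numbered 0 at TBX3 against 1 (0.690% of sites in the genome). Sites gained with RA numbered 0 against 2 for MAML3 (9.37% in the genome) and 0 against 1 for RARα (5.42%). With 2 sites at TBX3 the counts of 0 are not read as a difference between the loci, and none was tested.

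**Figure D5:**
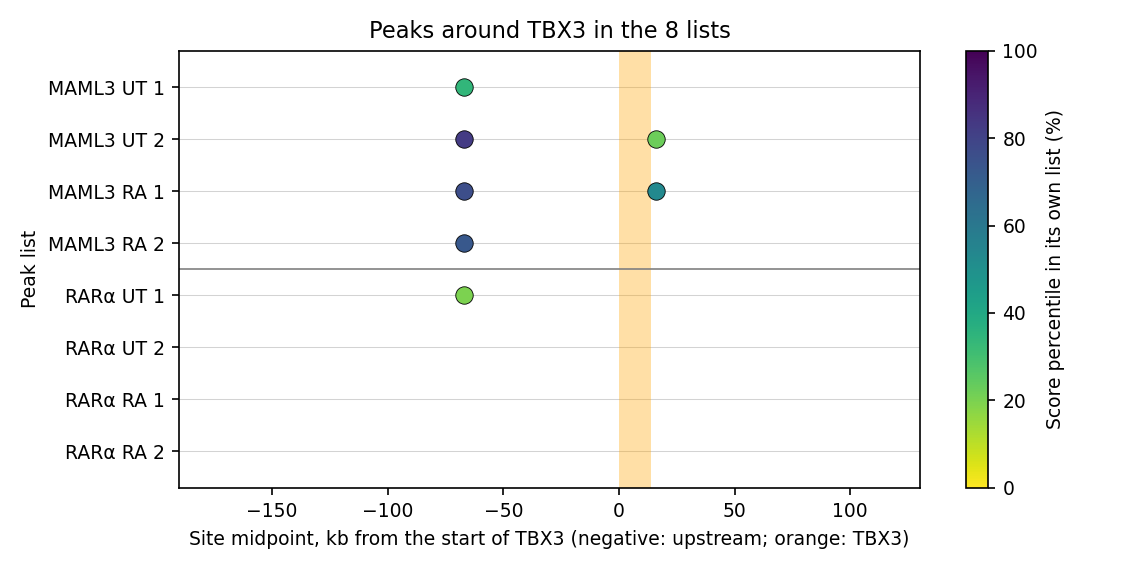
Peaks of the 8 lists in the TBX3 window, placed by the site midpoint in kb from the start of TBX3 (positive: toward the far end of the gene and beyond) and coloured by score percentile within the list, with the TBX3 interval in orange. The site at 67.0 kb upstream is in the 4 MAML3 lists and 1 RARα list, and the site at 15.8 kb lies just past the end of the gene in 2 MAML3 lists.

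The edges of the windows cut the 2 loci differently. Before the chromosome 17 window the nearest site lay 202 kb outside, at 58547319 to 58547668, in MAML3 RA replicate 2 alone at percentile 31.0, and the first site inside was the single peak of RA replicate 1 at 59079801 to 59080100, at percentile 28.9. At the other edge the last site inside was the one at 77.7 kb downstream of TBX2, and the first outside, 60.7 kb away at 59660665 to 59661014, was in MAML3 untreated replicate 2 alone at percentile 35.1. The chromosome 12 window had no site for 1671 kb before it. Beyond its other edge, however, 11 sites lay within 600 kb, upstream of TBX3. The first, 131 kb outside at 115431206 to 115431555, was in MAML3 RA replicate 1 alone at percentile 40.2. All of these 11 sites held MAML3, and 6 were in all 4 MAML3 lists, against 16.8% of MAML3 sites in the genome. RARα was listed at 5 of the 11, against 17.0% of MAML3 sites in the genome. These sites were picked after their values were seen, and no test was made. The nearest of these 5, at 115440306 to 115440855 and 318 kb from the TBX3 start, had MAML3 in 4 lists and RARα in 1. The one in most lists, at 115892860 to 115893565 and 771 kb from that start, had MAML3 in 4 lists and RARα in 3. None of the 11 was in all 8 lists. The count of 2 TBX3 sites therefore depends on where the window ends.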

How the data were processed

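Chromatin immunoprecipitates of MAML3 and RARα from SK-N-SH cells are represented by 8 deposited peak lists, 1 per library. The 2 input samples of the 10 labelled samples were not analysed here. Libraries were amplified for 15 cycles, per the labels' protocols. Tools named in the submitters' processing notes are MACS, bedtools and BWA 0.5.9, with hg19 as the build and no roles. How peaks were called, and against which control, is not stated, nor is the filter or intersection applied to the lists. The list name of RARα untreated replicate 2 is marked as merged and has no lane tag, without explanation in the labels. The 2 untreated MAML3 lists share an index tag, so they may come from 1 library.

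The number deposited with each peak was treated as a score of the authors' peak caller and used to rank peaks within a list. Starts were shifted to count from 1. Peaks overlapping by 1 bp or more were joined into sites over all 8 lists, and per antibody for gained and lost counts. The joining and calling were tested on simulated lists. Their sites stood further apart than the closest sites of the BCAS3 and TBX2 window and held no split peaks, so those cases were not covered. Python 3.11.15, numpy 2.4.6 and matplotlib 3.10.9 were used.

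The windows, sites and comparisons were chosen with earlier results of these data known, and no test was made. Named sites are those in all 8 lists, gained or lost, in all 4 lists of an antibody, highest in a window, or nearest to a gene or window edge. Other named sites were chosen after their values were seen. They are those in the 2 short stretches, next to a gained site, past the TBX3 window and at 77.7 and 14.6 kb from TBX2. The alternatives were joining at 50% of the shorter peak or within 1 kb, the higher-scoring 50% of each list, lists of equal length (2222 MAML3 and 251 RARα peaks), each library left out, and libraries of 1 lane tag. No sequence is printed, since a genome of the peaks' build was not used here. RefSeq promoter sequences (GRCh38.p14) matched BCAS3 but neither TBX2 nor TBX3. No peak was listed in the first 330 kb of the window, but sites beyond that may lie within BCAS3, which was not annotated here.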

Additional observations from a re-analysis of the deposited data

How the results depend on the processing

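The 15 counts were recomputed under the alternatives, which gave 137 values, of which 114 stayed within 1.5 times the reported count. Joining at 50% of the shorter peak or within 1 kb moved none of them by more. With the higher-scoring 50% of each list, the BCAS3 and TBX2 window had 1 gained MAML3 site, which was neither of the 2 reported ones but a site whose untreated peak fell in the lower 50% of its list, and the TBX3 window had 0 MAML3 sites in all 4 lists and 0 RARα sites. With lists of equal length the BCAS3 and TBX2 window had 8 MAML3 sites and 0 gained ones, and the TBX3 window 1 MAML3 and 0 RARα sites. These lists hold fewer peaks by construction. In lane tag L003 alone 4 MAML3 sites were gained and 2 lost, and 2 RARα sites gained and 1 lost. In tag L007 alone 9 MAML3 sites were gained. Tag L007 holds no untreated RARα list, so RARα has no value there.

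Leaving out each library in turn gave, in the BCAS3 and TBX2 window, 19 to 21 MAML3 sites, 3 to 8 in all lists, 2 to 7 gained and 0 to 2 lost. RARα ranged over 5 to 6 sites, 1 to 3 in all lists, 1 to 3 gained and 0 to 1 lost, and the sites in all lists of both antibodies over 1 to 3. At TBX3 the RARα sites ranged over 0 to 1 and the other counts did not move. No paired analysis was possible because a block on the replicate number needs a fitted test and these are counts without one. The pairs of libraries by lane tag are given above as counts. Read depth is not known, so no site absent from a short list can be called unbound.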
